A study of Mus musculus with 2 samples.

Results

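The genes described here encode the inhibitors of cyclin-dependent kinases (CDK). They comprise the 4 INK4 genes Cdkn2a, Cdkn2b, Cdkn2c and Cdkn2d, the 3 CIP/KIP genes Cdkn1a, Cdkn1b and Cdkn1c, and Cdkn3, which encodes a phosphatase that acts on CDKs. They were taken from the arrays as every biological probe whose gene name in the scanner tables is one of these symbols, which gave 8 genes of 29875 by name and 13 probes of 39429. The family was chosen by the values of the very comparison shown here, in which Cdkn2b was much higher with BIO while proliferation genes were higher as well. The values of the 8 genes are therefore given as a description. Where the result of the fit across all probes is named for a member, it only describes that fit and is no independent test.

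Ureters of wildtype embryos of the outbred mouse strain NMRI were dissected at E12.5 and kept as explants for 18 h. Control explants were given DMSO, in which BIO was dissolved, diluted as 2 parts in 1000 of medium, and treated explants were given 10 µM BIO (6-bromoindirubin-3-oxime), an inhibitor of the kinase GSK3 that serves to activate canonical WNT signaling. Sex was not determined, and both groups were cultured in a medium that the labels list without serum. RNA from pools of whole ureters was hybridised to 2 two-color Agilent arrays. Each array paired a control pool with a BIO pool, and the dyes were exchanged from one array to the next. Only RNA of whole explants was measured, so fewer cells of a type and less RNA per cell cannot be told apart.

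Cells pass from G1 into S phase when cyclin D with CDK4 or CDK6 and then cyclin E with CDK2 phosphorylate the retinoblastoma protein, which releases E2F factors. INK4 proteins (p16, p15, p18 and p19) bind CDK4 and CDK6 and keep cyclin D away. CIP/KIP proteins (p21, p27 and p57) bind complexes of cyclins with CDK2 and CDK1. Cdkn2a additionally encodes, from another first exon and in another reading frame, the ARF protein, which protects p53 from MDM2. The gene of p15 is a textbook target of TGF-beta signaling, that of p21 of p53, and that of p57 is imprinted and expressed from the maternal copy.

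The probe sequences below are shown because signals were measured with them. The promoter windows that follow them are a description, and no ratio rests on them. First come the opening 30 bases (5′ to 3′, as the scanner tables list them) of the 60-base probes for Cdkn2b and for the barely detected Cdkn2a, which lie next to each other on chromosome 4. Probe positions are in mm9 (NCBI37), as the scanner tables give them. No part is capitalised.

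Cdkn2b, brighter probe (chr4:88952276-88952335, minus strand): ccagtgatgaattgtagtggtagcaggtta
Cdkn2b, dimmer probe (chr4:88952720-88952779, minus strand): ttgagcctcaccttgaagccaaggggatca
Cdkn2a, first probe (chr4:88920405-88920464, minus strand): ggcatgagaaactgagcgaaggcggccgcg
Cdkn2a, second probe (chr4:88920543-88920602, minus strand): cttctagcgatgctagcgtgtctagcatgt

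Both Cdkn2b probes are assigned to the transcript NM_007670. Both Cdkn2a probes carry the 2 transcript accessions NM_009877 and NM_001040654, so the mRNAs of p16 and ARF could not be distinguished. Of the 39416 other probes on the array, 0 shared a run of 20 bases with any of the 13 probes.

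Next are the 250 bases before the transcription start of the 4 genes that were higher with BIO, from RefSeq with assembly GRCm38.p6, a different build from that of the probes. They are shown so that the short motifs that differ between these genes can be read in place. For Cdkn1a and Cdkn2c, each with 2 annotated starts, the window with the higher GC content is given. Capitals mark words found on either strand for the TCF/LEF site (the word CTTTGAA, with CTTTGAT as the second, CTTTGTA as the third and CTTTGTT as the last variant), the GC box (GGGCGG), the CCAAT box (CCAAT), the cell cycle homology region CHR (TTTGAA, which is contained in CTTTGAA), E2F (the word TTTCCCGC, with TTTCGCGC as the second, TTTGCCGC as the third and TTTGGCGC as the last variant) and the cAMP response element CRE (TGACGTCA).

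Cdkn2b (chr4:89311033-89311282, minus strand): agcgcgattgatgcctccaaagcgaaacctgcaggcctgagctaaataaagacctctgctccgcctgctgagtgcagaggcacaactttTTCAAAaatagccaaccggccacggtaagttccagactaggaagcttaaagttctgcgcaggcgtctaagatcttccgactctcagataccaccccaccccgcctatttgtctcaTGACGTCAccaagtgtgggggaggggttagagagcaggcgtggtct
Cdkn2c (chr4:109666757-109667006, minus strand): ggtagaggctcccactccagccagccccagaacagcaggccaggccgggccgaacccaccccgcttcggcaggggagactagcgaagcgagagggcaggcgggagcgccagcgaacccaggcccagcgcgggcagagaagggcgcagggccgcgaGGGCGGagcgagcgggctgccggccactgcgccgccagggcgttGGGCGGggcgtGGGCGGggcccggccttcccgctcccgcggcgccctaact
Cdkn1a (chr17:29093519-29093768, plus strand): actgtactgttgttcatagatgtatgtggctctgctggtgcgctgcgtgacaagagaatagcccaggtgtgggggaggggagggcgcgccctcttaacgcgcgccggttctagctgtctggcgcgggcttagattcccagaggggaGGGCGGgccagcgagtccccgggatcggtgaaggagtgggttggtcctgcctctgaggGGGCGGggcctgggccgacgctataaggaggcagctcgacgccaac
Cdkn3 (chr14:46760291-46760540, plus strand): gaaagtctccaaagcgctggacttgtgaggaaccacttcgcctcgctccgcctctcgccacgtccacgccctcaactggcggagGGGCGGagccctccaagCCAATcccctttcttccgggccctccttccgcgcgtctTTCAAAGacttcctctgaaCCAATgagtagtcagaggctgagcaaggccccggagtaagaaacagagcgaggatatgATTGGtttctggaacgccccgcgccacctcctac

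The window of Cdkn2b held 1 CRE 46 bases before the start and 1 CHR word on the opposite strand, but 0 GC boxes and 0 TCF/LEF words. A CRE was present in 1.55% of all 32851 RefSeq windows of this length, a CHR word in 16%, a GC box in 32.7% and a TCF/LEF word in 14.8%. Cdkn2c held 3 GC boxes and Cdkn1a held 2. Cdkn3 was the only one of the 10 member windows with a TCF/LEF word, at 111 bases before the start, where it overlaps a CHR word. It also held 3 CCAAT boxes, a word present in 33.8% of all windows. In the windows not printed, that of the upstream start of Cdkn2a held the only E2F word among the members (1.86% of all windows), Cdkn2d held 3 GC boxes and 1 CCAAT box, and Cdkn1b held 1 GC box and 2 CCAAT boxes. GC content was 53.6% for Cdkn2b, 77.2% for Cdkn2c, 64.8% for Cdkn1a and 60% for Cdkn3, beside a median of 52.4% over all windows. For Cdkn2c and Cdkn1a the window had been chosen by its higher GC content. The windows of their other starts had a GC content of 42.8% and 54% and held 0 GC boxes. These are matches of letters, not measured binding, and 7 of the 8 genes had a window.

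Of the 8 genes, 7 were bright enough to be tested. In the fit with limma across all probes, a gene was called risen or fallen when its Benjamini-Hochberg adjusted p was below 0.05. By this measure 4 members were higher (Cdkn2b, Cdkn1a, Cdkn3 and Cdkn2c), 0 were lower, and Cdkn1b, Cdkn1c and Cdkn2d were not called. Over all 21574 genes tested, 9.13% were called risen and 14.8% fallen, so that 38.2% of the called genes were higher with BIO. With the deposited score table in place of the scanner values, this share was 59.4%. Since this contrast chose the family, nothing was read from these shares. The 7 genes had a median log2 ratio of BIO over control of 0.75 (0.60 and 0.74 on the separate arrays), beside -0.0083 for all genes. In what follows, processed signals are the background-subtracted, dye-normalized intensities of the scanner software in arbitrary units, which serve only for comparing channels of the same probe. Log2 ratios come from the separate normalization described with the methods, and their errors are limma's moderated standard errors over both arrays.

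**Figure D1:**
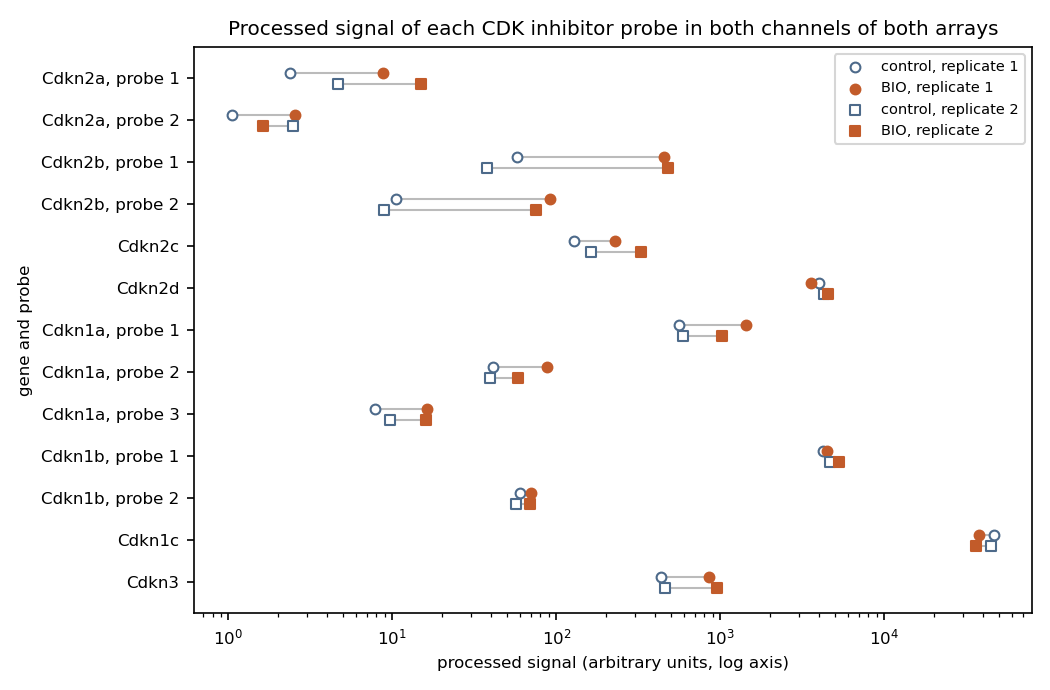
Processed signal (x axis, arbitrary units, log scale) of each of the 13 CDK inhibitor probes (y axis, probe 1 of a gene being its brightest) in the control (open) and BIO (filled) channels of replicate 1 (circles) and replicate 2 (squares). Grey lines join the channels of one array. The widest gaps are those of Cdkn2b, from 58.0 to 453 and from 37.9 to 478 for its brighter probe, while Cdkn1b, Cdkn1c and Cdkn2d lie close together.

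Among the INK4 genes, Cdkn2b, which encodes p15, had a signal of 58.0 in the control and 453 in the BIO channel of replicate 1 at its brighter probe. In replicate 2 it had 37.9 in the control and 478 in the BIO channel. The BIO channels thus lay far above both control channels, and the processed signals differed 7.82-fold and 12.6-fold. The log2 ratios were 2.45 and 2.91, with a mean of 2.68 ± 0.13 (SE, n = 2). Its mean was 8 from the top among all genes tested. The dimmer probe gave 10.5 and 92.1 in replicate 1 and 8.94 and 74.9 in replicate 2. Its control channel was above background in replicate 1, where the log2 ratio was 1.72 and the processed signals differed 8.76-fold. In replicate 2 it was not, with 0 of 4 spots above background, so the log2 ratio of 1.47 on that array and the mean of 1.59 ± 0.12 are no measure of the size of the change. The normalization for the log2 ratio adds an offset of 50 to each channel, which lowers the ratios of dim probes.

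Cdkn2c (chr4:109333508-109333567, NM_001301368), which encodes p18, had 128 in the control and 229 in the BIO channel of replicate 1, and 162 and 329 in replicate 2. Again both BIO channels lay above both control channels. The log2 ratios were 0.60 and 0.90, with a mean of 0.75 ± 0.12. Cdkn2d (chr9:21092934-21092993, NM_009878), which encodes p19 of the INK4 series, had 4000 in the control and 3581 in the BIO channel of replicate 1, and 4302 and 4514 in replicate 2. The arrays differed in direction, with log2 ratios of -0.16 and 0.04, and the mean of -0.06 ± 0.11 was not called.

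Cdkn2a, the gene next to Cdkn2b, was barely detected. Its first probe had 2.37 in the control and 8.73 in the BIO channel of replicate 1, and 4.66 and 15.02 in replicate 2. On both arrays its control channel was not well above background, and its BIO channel was so in replicate 2 only. Set against the lowest signals above background, the BIO level was at least 1.17-fold higher, a bound that rests on the single array in which BIO was measured. The second probe was not well above background in any channel. Cdkn2a was therefore not tested.

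**Figure D2:**
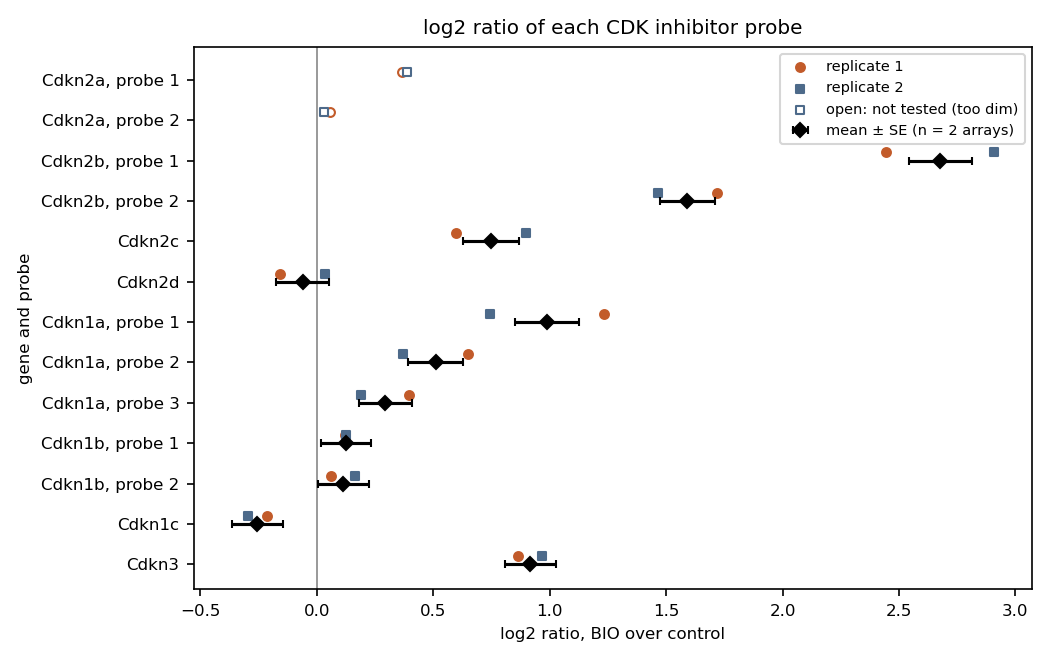
Log2 ratio of BIO over control (x axis) for each CDK inhibitor probe (y axis, probes numbered from the brightest). Circles and squares are replicates 1 and 2, diamonds with bars are means ± SE over 2 arrays, and open symbols mark the Cdkn2a probes, which were too dim to be tested. Cdkn2b stands farthest to the right at 2.68, the brightest probes of Cdkn1a, Cdkn3 and Cdkn2c lie between 0.75 and 0.99, and the remaining tested genes lie between -0.26 and 0.12.

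In the CIP/KIP group, Cdkn1a, which encodes p21, had 560 in the control and 1427 in the BIO channel of replicate 1 at its brightest probe (chr17:29237377-29237436, NM_007669), and 593 and 1023 in replicate 2. All BIO values lay above all control values. The log2 ratios of 1.23 and 0.74 differed by 0.49 between the arrays, the widest difference among the 11 tested probes, and had a mean of 0.99 ± 0.14. A further probe (chr17:29235299-29235358), assigned to ENSMUST00000122348, had 41.1 and 87.4 in replicate 1 and 39.1 and 58.3 in replicate 2, with a mean log2 ratio of 0.51 ± 0.12. The probe that lists NM_001111099 as its only RefSeq transcript (chr17:29227986-29228045) was dim, with 7.87 and 16.3 in replicate 1 and 9.64 and 16.01 in replicate 2. In replicate 2 only 1 of its 4 control spots was above background, so its mean log2 ratio of 0.29 ± 0.11, which was not called, is no measure of the size of a change. The first and the second probe were higher with BIO on both arrays, in both cases more so in replicate 1.

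Cdkn1b (chr6:134875424-134875483, NM_009875), which encodes p27, had 4201 in the control and 4498 in the BIO channel of replicate 1, and 4646 and 5292 in replicate 2. Both arrays gave a log2 ratio of 0.12 (SE 0.11), which was not called. On each array the BIO value lay above its own control. Only across the arrays did the values overlap, as the BIO value of replicate 1 lay below the control value of replicate 2. Its second probe, with signals between 56.7 and 70.1, gave 0.06 and 0.16 and was not called either.

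Cdkn1c (chr7:150644753-150644812, NM_009876), which encodes p57, had 46627 in the control and 37771 in the BIO channel of replicate 1, and 45000 and 36434 in replicate 2. Both BIO values lay below both control values. The log2 ratios were -0.21 and -0.30, with a mean of -0.26 ± 0.11 that was not called and that turned to 0.04 when the arrays were centered on the median in place of loess. Only 3 spots of this probe in replicate 1 and 2 spots in replicate 2 were free of outlier marks, against 4 spots for most other member probes.

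Cdkn3 (chr14:47386895-47386954, NM_028222), whose phosphatase removes the activating phosphate of CDKs, had 433 in the control and 848 in the BIO channel of replicate 1, and 462 and 950 in replicate 2. The log2 ratios were 0.87 and 0.97, with a mean of 0.92 ± 0.11. The arrays differed by 0.10 only. Cdkn3 is itself known as a gene that is transcribed in cycling cells.

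An intensity and fold-change rule without a test, modelled on the filter that the study states for other arrays, was applied as well. Here it asked for a change of at least 2-fold in one direction on both arrays, and the intensity minimum of 100 was set on the brighter channel, which is a reading made for these values. Of 29864 genes, 0.683% were higher and 1.53% lower by this rule. Of the members, Cdkn2b passed alone. When the minimum was set at 1.5-fold, Cdkn1a, Cdkn2c and Cdkn3 passed as well, and of all genes 681 were higher and 1113 lower. On replicate 1 alone the rule passed Cdkn2b and Cdkn1a, and of all genes 301 were higher and 740 lower. On replicate 2 alone it passed Cdkn2b, Cdkn2c and Cdkn3, and of all genes 323 were higher and 557 lower.

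The 5 genes whose pair of log2 ratios was closest to that of Cdkn2b, by Euclidean distance over the 2 arrays among all genes tested, were Cyp1a1 (distance 0.18), Sp5 (0.22), Nr1h5 (0.36), Htra1 (0.47) and Notumos (0.53). Cyp1a1, a cytochrome P450 known as a target of the aryl hydrocarbon receptor, had log2 ratios of 2.32 and 2.78. Sp5, a transcription factor gene known as a direct target of canonical WNT signaling, had 2.66 and 2.94. Nr1h5 had 2.74 and 2.69, Htra1, a secreted protease, had 2.82 and 2.63, and the antisense transcript Notumos had 2.94 and 3.095. With 2 arrays this measure reflects little more than the size of the log2 ratios, which the offset of the normalization lowers more for dim probes. In replicates 1 and 2 the control signals were 58.0 and 37.9 for Cdkn2b. They were 498 and 353 for Cyp1a1, 527 and 366 for Sp5, and 125 and 177 for Nr1h5. Equal log2 ratios therefore need not mean equal changes in signal, and whether the order of the 5 genes depends on the offset was not tested.

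The proliferation genes named in the choice of the family are given as a description too. Of 23 replication and mitosis genes tested, 22 were called risen and 0 fallen, with a median log2 ratio of 0.88. Mcm7, a helicase subunit, was not called (0.20 ± 0.11). The signals of the 23 genes summed to 137707 in the control and 224981 in the BIO channel of replicate 1, and to 153581 and 261332 in replicate 2. The 4 largest changes were those of the mitotic kinesin Kif11 (1.27), the mitotic kinase Aurkb (1.25), the topoisomerase Top2a (1.22) and the checkpoint kinase Bub1 (1.17). Whether transcripts of inhibitors and of proliferation genes came from the same cells was not measured.

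The kinases and cyclins bound by the inhibitors were counted in separate lists. Of 5 genes, those of the INK4 targets CDK4 and CDK6 and of the 3 D cyclins that pair with them, 0 were called in either direction, and 1 had an unadjusted p below 0.05. Cdk4 had a log2 ratio of 0.13 ± 0.11, Cdk6 of -0.22 ± 0.11, Ccnd1 of -0.28 ± 0.12, Ccnd2 of -0.24 ± 0.11 and Ccnd3 of -0.33 ± 0.11, so 4 of the 5 means were below 0. Of the 8 cyclins and kinases that CIP/KIP proteins bind, 6 rose and 0 fell, with a median of 0.81. The mitotic cyclin Ccnb1 rose most. It had 5179 in the control and 12490 in the BIO channel of replicate 1, and 6336 and 13956 in replicate 2, with a mean log2 ratio of 1.18 ± 0.11. Its kinase Cdk1 rose by 0.99 ± 0.11, Ccna2 by 0.94 ± 0.11 and Ccne2 by 0.84 ± 0.11. Cdk2 (0.28 ± 0.11) and Ccne1 (0.35 ± 0.11) were not called.

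**Figure D3:**
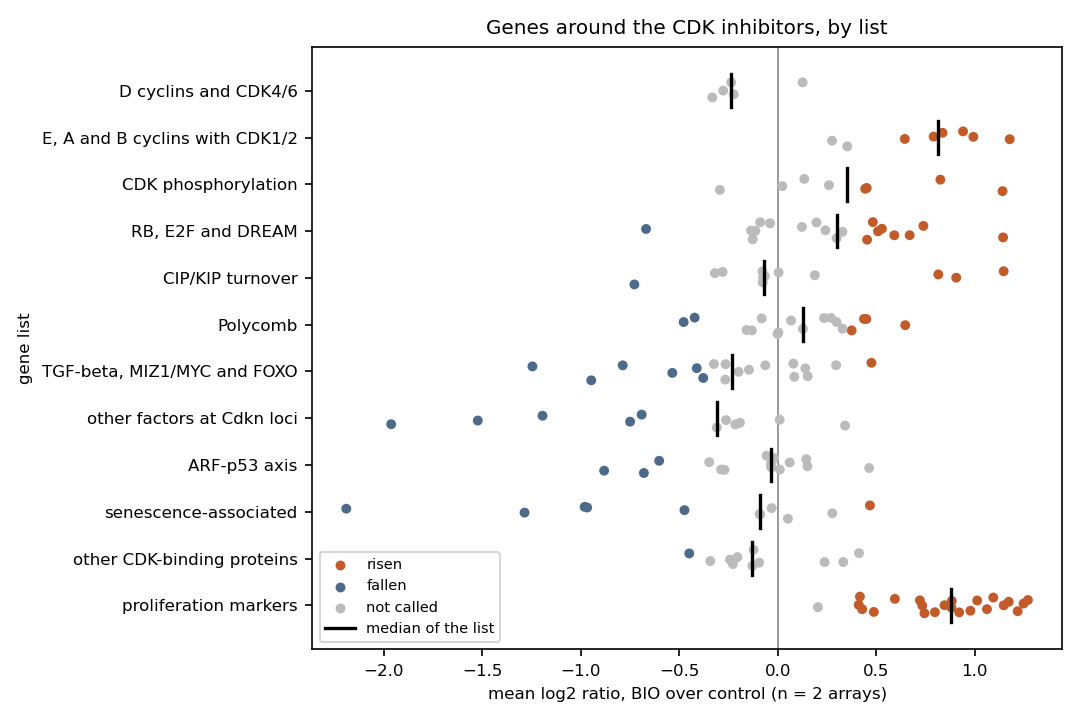
Mean log2 ratio of BIO over control (x axis, n = 2 arrays) of each tested gene in 11 lists around the CDK inhibitors and in the proliferation markers (y axis), with points colored by the call of the fit and black bars at the median of the list. All 5 points of the D cyclins with CDK4/6 are grey and their median is -0.24, whereas 6 of 8 E, A and B cyclins with CDK1/2 rose and their median is 0.81.

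Enzymes that set CDK phosphorylation and the pocket proteins downstream were counted next. Of 8 genes for CDK phosphorylation, 4 rose and 0 fell. They were Cdc25c (1.14 ± 0.11) and Cdc25a (0.45 ± 0.11), which encode phosphatases that activate CDKs, and Wee1 (0.83 ± 0.11) and Pkmyt1 (0.44 ± 0.11), which encode the kinases that oppose them. Transcripts of both opposing groups of enzymes were thus among those that rose, and the activities of the enzymes were not measured. Of 19 genes of RB, E2F and DREAM, 8 rose and 1 fell. The gene that fell was Rb1 itself, which had 2792 in the control and 1807 in the BIO channel of replicate 1, and 3223 and 2030 in replicate 2, with a mean log2 ratio of -0.67 ± 0.11. The repressor E2f8 rose by 1.14 ± 0.12, the MYB factor Mybl2 by 0.74 ± 0.11 and the activator E2f1 by 0.67 ± 0.12.

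Among 12 genes for the turnover of CIP/KIP proteins, 3 rose and 1 fell, and the median was -0.07. Skp2, which encodes the F-box protein that recognises p27, rose by 0.82 ± 0.11, Cks2, of the same family as the SKP2 cofactor CKS1, by 1.15 ± 0.11, and Dtl, which directs p21 to its ligase in S phase, by 0.91 ± 0.11. Rnf123, which encodes the ligase that acts on p27 in G1, was the gene that fell (-0.73 ± 0.11). The transcripts of 8 other components were not called. Among them were Cks1b (0.19 ± 0.11), which encodes CKS1 itself, Cul1 (-0.07 ± 0.11), Ddb1 (-0.07 ± 0.11) and Rbx1 (-0.32 ± 0.11). Protein levels of the inhibitors were not measured.

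Of the factors known to act on the inhibitor genes, the Polycomb list counted 4 risen and 2 fallen of 17, with a median of 0.13. Ezh2, the methyltransferase, rose by 0.65 ± 0.11, Cbx2 by 0.45 ± 0.11 and Suz12 by 0.44 ± 0.12, whereas Rnf2 had fallen (-0.48 ± 0.12). In the list of TGF-beta, MIZ1/MYC and FOXO, known for Cdkn2b and Cdkn1a, 1 of 18 genes rose and 6 fell. The ligand Tgfb1 had 290 in the control and 133 in the BIO channel of replicate 1, and 363 and 127 in replicate 2, with a mean log2 ratio of -1.24 ± 0.12. Myc, whose protein represses Cdkn2b and Cdkn1a through MIZ1, changed by -0.95 ± 0.11, the receptor gene Tgfbr2 by -0.79 ± 0.11 and Klf4 by -0.53 ± 0.12. Zbtb17, which encodes MIZ1, was too dim to be tested.

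In the list of other factors at these loci, 0 of 11 genes rose and 5 fell. They were led by the Notch target Hey1 (-1.96 ± 0.15), Ets1 (-1.52 ± 0.11), Twist1 (-1.19 ± 0.11) and Ets2 (-0.75 ± 0.11), of which Ets1 and Ets2 encode activators of the p16 promoter. Tbx2 and Tbx3, which encode repressors of the Cdkn2a locus, had log2 ratios of 0.01 ± 0.11 and 0.34 ± 0.11 and were not called.

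For p53 and its partners, 0 of 15 genes rose and 3 fell, with a median of -0.03. Those that fell were the p53 targets Plk2 (-0.88 ± 0.11), Trp53inp1 (-0.68 ± 0.11) and Bbc3 (-0.60 ± 0.11). Mdm2 (0.06 ± 0.11), Ccng1 (-0.35 ± 0.12), Sesn1 (-0.06 ± 0.11) and Phlda3 (-0.03 ± 0.11), also targets of p53, were not called, and Trp53 itself differed in sign between the arrays (0.10 and -0.68). Among 11 tested genes that accompany senescence, 1 rose and 5 fell. Igfbp3 (-2.19 ± 0.11), Igfbp5 (-1.29 ± 0.18) and the chemokine Ccl2 (-0.98 ± 0.25) were the lowest, and the lamin gene Lmnb1, known to decline in senescent cells, rose by 0.47 ± 0.11. Il6 and Mmp3 were not bright enough to be tested. Of 11 other CDK-binding proteins 0 rose, and the single gene that fell was Sertad1 (-0.45 ± 0.11). Over the 11 lists, 27 of 135 tested genes rose and 24 fell, beside 9.13% and 14.8% of all genes.

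Neighbours on the chromosome were examined to see whether other genes at the same loci changed. Within 500 kb of a member probe lay 139 other genes, of which 119 were tested, 11 rose and 20 fell, beside the same 9.13% and 14.8% of all genes. At the locus of Cdkn2a and Cdkn2b few genes could be measured. Of 12 other genes around Cdkn2b, 5 were tested, of which 1 rose and 0 fell. The gene that rose was Dmrta1, 408 kb away, with log2 ratios of 0.87 and 0.64 and a mean of 0.75 ± 0.11. The nearest tested feature on the other side, the predicted transcript ENSMUST00000121213 at -88.6 kb, was not called (-0.23 ± 0.15). Its arrays differed in sign (0.06 and -0.51). On the same side Mtap, at -126 kb, had log2 ratios of 0.32 and 0.33 and was not called either. The distance between the probes of Cdkn2a and Cdkn2b was 31.9 kb.

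**Figure D4:**
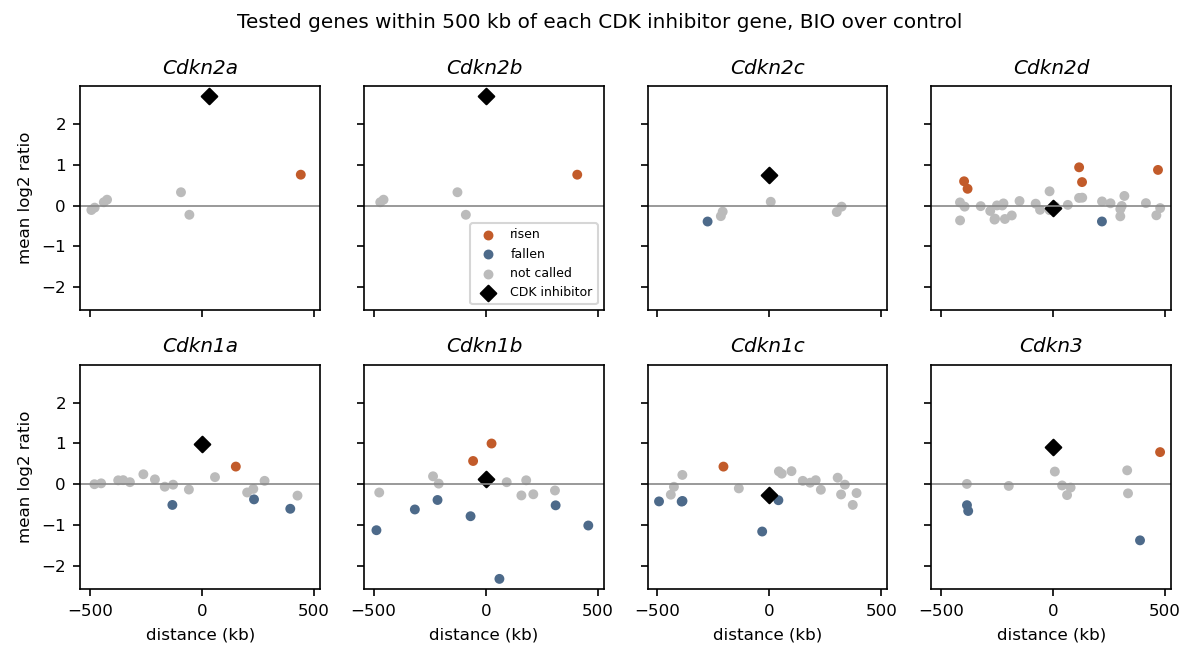
Mean log2 ratio of BIO over control (y axis) of the tested genes within 500 kb of each CDK inhibitor gene, against the distance between probes in kb (x axis, positive toward higher coordinates). Black diamonds are CDK inhibitors and colored points are called genes. Around Cdkn2b there are only 5 tested genes, none above Dmrta1 at 0.75, while the locus of Cdkn1b holds the most called genes, with 2 risen and 7 fallen.

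At the locus of Cdkn1b, 2 of 17 tested genes rose and 7 fell although Cdkn1b itself was not called. The long noncoding RNA Lockd, which is transcribed just downstream of Cdkn1b, rose by 1.00 ± 0.14, and the receptor gene Gpr19, the nearest neighbour on the other side, by 0.57 ± 0.11. Apold1, known from endothelium, was much lower (-2.32 ± 0.13). At the imprinted locus of Cdkn1c, the nearest neighbours Kcnq1, a potassium channel gene, and Slc22a18, an organic cation transporter gene, both fell (-1.16 ± 0.11 and -0.39 ± 0.11). The noncoding RNA Kcnq1ot1, which silences this cluster on the paternal chromosome, rose by 0.43 ± 0.11. It is transcribed across part of Kcnq1 from the opposite strand, and the arrays do not separate parental copies.

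Around the other members, the adjacent genes were not called or too dim. For Cdkn1a the nearest neighbours were Srsf3 (-0.13 ± 0.11) and Rab44, which was not tested, and the closest called genes were Kctd20 (-0.51 ± 0.12), Ppil1 (0.43 ± 0.12) and Mtch1 (-0.37 ± 0.11). For Cdkn3 the nearest tested neighbour was Cnih1, 8.47 kb away, at 0.31 ± 0.12, and called genes lay no closer than LOC102638002 (-0.66 ± 0.12) at -378 kb, followed by Bmp4 (-0.51 ± 0.11) and Gch1 (-1.38 ± 0.11). For Cdkn2c the nearest neighbours were the untested 9630013D21Rik and an unnamed probe 6.34 kb away (0.09 ± 0.11), and Eps15 (-0.39 ± 0.11) was the only called gene. For Cdkn2d, in the region with the most genes, Atg4d (-0.11 ± 0.11) and Ap1m2 (-0.03 ± 0.11) were adjacent, and of 36 tested genes 5 rose and 1 fell, the closest being Gm16853 (0.94 ± 0.20), Qtrt1 (0.57 ± 0.11) and Dnm2 (-0.39 ± 0.11).

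The RNA came from all cells of the ureter, and markers of several cell types differed between the channels. Of 8 endothelial markers, 8 fell, with a median log2 ratio of -2.07, and their summed signal was 28598 and 34430 in the control channels and 5317 and 9919 in the BIO channels. Of 12 markers of the ureteric mesenchyme 9 fell (median -0.64, sums of 373394 and 404721 in the controls and 233080 and 257898 with BIO). The 3 not called were the transcription factor genes Tbx18, Tcf21 and Foxf1, and the sums are led by bright genes such as Col1a2 and Col3a1. Of 12 epithelial markers 7 fell (median -0.66, sums of 86882 and 88492 against 51251 and 61158), among which Upk1b was not well above background in either BIO channel. The epithelial sums are led by the keratin genes Krt8 (28018 and 27676 in the controls) and Krt18 (28778 and 27684), which both fell. The 5 epithelial markers not called were Epcam, Gata3, Cldn4, Grhl2 and Elf3. Of 6 tested macrophage markers 4 fell (median -0.71, sums of 5643 and 6364 against 3700 and 5225), and Fcgr1 was too dim to be tested. In these 4 lists 0 tested markers rose. Their part in the values of the CDK inhibitors was not tested.

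The ratios of the members were then recomputed in other ways. For Cdkn2b the log2 ratio ranged from 2.13, as the mean of both probes, to 3.32 with the deposited score table. The ranges were 0.60 to 0.92 for Cdkn2c, 0.60 to 1.23 for Cdkn1a and 0.79 to 1.04 for Cdkn3, and 0.11 to 0.14 for Cdkn1b. For Cdkn1c and Cdkn2d the range spanned 0 (-0.34 to 0.04 and -0.16 to 0.04). The fit called Cdkn2b, Cdkn2c, Cdkn1a and Cdkn3 in each alternative that could be fitted except with the score table, which is rounded to 1 decimal and in which only Cdkn3 and Cdkn1b were called among the members.

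**Figure D5:**
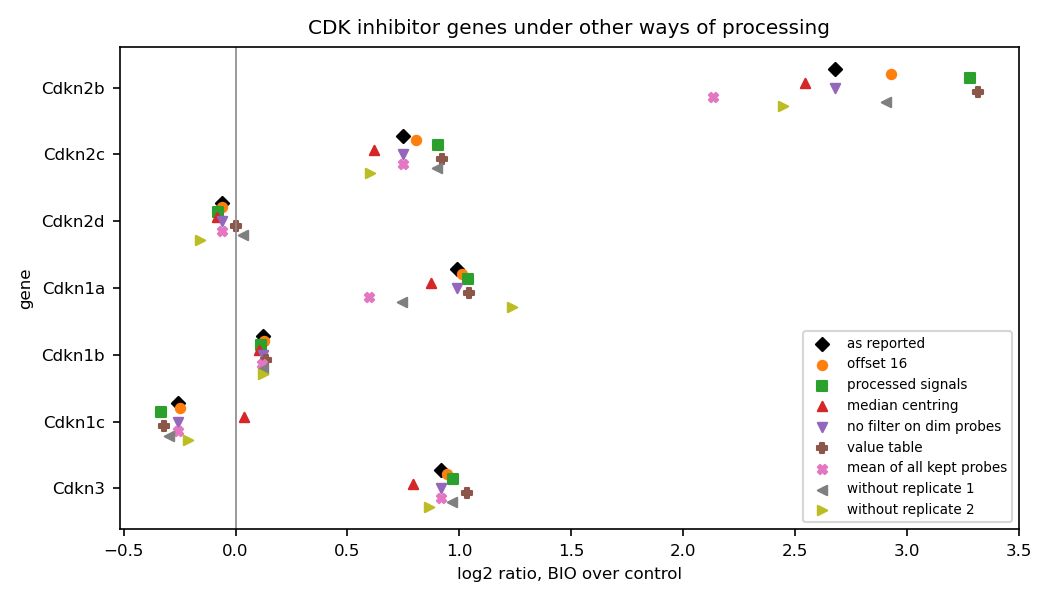
Log2 ratio of BIO over control (x axis) of the 7 tested CDK inhibitor genes (y axis) as reported (black diamonds) and under each alternative, in which 1 step of the processing was changed or 1 array was left out. Every value of Cdkn2b is at least 2.13, the values of Cdkn2c, Cdkn1a and Cdkn3 lie between 0.60 and 1.23, and those of Cdkn2d and Cdkn1c fall on both sides of 0.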

How the data were processed

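RNA of E12.5 NMRI ureter explants cultured for 18 h with 10 µM BIO or DMSO was measured on 2 Agilent two-color arrays (1 slide, scanned together) with exchanged dyes. Per the labels, the authors used Agilent Feature Extraction 10.7.3.1. The deposited scanner tables give mean spot intensity and local background intensity, not normalized, and processed intensity, which the software had background-subtracted and dye-normalized. A further deposited table holds a score for every probe on each array with 1 decimal, and how the authors made it is not given in the sources used here. Read as a signed fold change and turned to log2, the score correlated with the centered log2 ratio of the processed signals (0.92 and 0.94). A correlation does not compare scale, and the centering of the score stays unknown. It served as an alternative.

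Analysis was done in R 4.3.3 with limma 3.58.1. Normexp (offset 50) was used to correct the mean intensities, and log2 ratios were normalized by loess within each array. Control spots and outlier spots (3.49% and 3.16%) were left out, and 0 spots were saturated. Spots of a probe were averaged. Probes well above background in the same channel group of both arrays were tested (28824 probes), that is when a share of more than 0.5 of the spots was marked so. In the control channels 80.9% and 73.7% of spots, and in the BIO channels 70.1% and 78.1%, were above background. The dye-swapped ratio was turned, and the log2 ratios of BIO over control were fitted by lmFit and eBayes and compared with 0 (two-sided, Benjamini-Hochberg over all probes, 0.05). The number of arrays limits the precision, with a median standard error of 0.11. Errors and p-values use the spread between these 2 arrays, which limma moderates toward the spread shared by all tested probes. That shared spread entered with 7.14 prior degrees of freedom, more than the arrays of a single probe give. An error near 0.11 therefore largely reflects the shared spread, and no variation beyond these 2 arrays is covered. A gene was represented by its brightest probe. Names came from accessions in a RefSeq table of GRCm38.p6 (28328 probes), symbols (3400) or synonyms (243), and 7458 probes kept the name in the file. The intensity and fold-change rule, which the study states for other arrays, was applied to processed signals raised to a floor of 15.

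The members and the 16 gene lists were chosen with earlier results of these data known, and the lists support nothing independent of them. Every member probe was named. Of each list up to 4 called genes with the largest mean ratio and the same sign on both arrays were named by rule, near each member up to 3 called genes and the nearest on either side, and the 5 genes closest to Cdkn2b. Other list genes given with values were picked after their values were seen, as genes of known role. The neighbour Mtap was also added after its values were seen. Values of 2 list genes are not reported here, though the counts include them. The fit was tested on simulated data. Alternatives changed the offset to 16, used processed signals, median centering, no filter on dim probes, the mean of all probes of a gene or the score table, or left out 1 array.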

Additional observations from a re-analysis of the deposited data

How the results depend on the processing

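Each step was changed alone, and the cause of a difference was not tested. With median centering, 827 genes rose and 1939 fell (against 1970 and 3184), 15 genes of the pathway lists rose (against 27), and 5 neighbours rose and 10 fell (against 11 and 20). With the score table, 1319 genes fell, as did 9 genes of the pathway lists (against 24) and 9 neighbours, and 2 CDK inhibitor genes rose (against 4). Of the 51 called genes of the pathway lists, processed signals kept the call of 38, median centering of 32 and the score table of 13, and 0 of them changed sign in these alternatives. The median of the CDK inhibitor genes (0.75) was 0.90 with processed signals, 0.62 with median centering, 0.56 without the filter on dim probes, where Cdkn2a was called risen as well, 0.92 with the score table and 0.60 as the mean of all kept probes. Without 1 array it ranged from 0.60 to 0.74. The median of the genes for CIP/KIP turnover (-0.07) came to 0.0011 after median centering and to 0 from the score table, and that of the ARF-p53 axis (-0.03) was 0 with the score table. By the intensity and fold-change rule, 681 genes were higher and 1113 lower at 1.5-fold, and 32 and 163 at 3-fold (against 204 and 458). On single arrays it gave 301 to 323 higher and 557 to 740 lower genes. Of the CDK inhibitors it gave 4 at 1.5-fold and 2 to 3 on single arrays (against 1). Counts of calls without 1 array could not be computed, since no residual degree of freedom is left. The comparison is paired as it stands, since every ratio is taken within an array. Beyond it, no paired analysis was possible because a block by replicate would leave no residual degree of freedom. Signal over background limits Cdkn2a, for which no ratio was tested, and the dimmer probes of Cdkn2b and Cdkn1a.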
